A study of Sus scrofa with 30 samples.

Results

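The genes described here encode the proteins of the cytosolic ribosome, in single pig embryos on 3 days before implantation. The members were all genes of the count table whose pig NCBI symbol is RPL or RPS followed by a number, with the usual letter and paralog endings, together with RPLP0, RPLP1, RPLP2 and RPSA and without the RPS6K kinases. This rule gave 81 of 13103 genes. By symbol alone, 49 were counted with the large (60S) and 32 with the small (40S) subunit. Paralogs such as RPL7L1 were placed in the same way, whether or not their proteins stay in the finished ribosome. RPL10L, a further symbol that the rule matches, is not analysed here. The symbol rule itself uses no measured value.

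A ribosome holds 1 copy of nearly all of these proteins, with the acidic stalk proteins RPLP1 and RPLP2 as the known exception, so their mRNAs are usually made in step. Ribosomal protein mRNAs begin with a terminal oligopyrimidine (TOP) tract, through which mTORC1 signalling and LARP1 set their translation. Building the subunits also needs rRNA made by RNA polymerase I in the nucleolus and a large set of assembly factors that do not stay in the finished particle. In the pig the days studied run from the spherical blastocyst around hatching to the elongating conceptus. The trophectoderm, the outer layer that later forms the placenta, lengthens in this time mainly because its cells migrate and are rearranged.

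The RNA came from whole embryos, with embryonic disc and trophectoderm together, flushed from the uterus of inseminated German Landrace by Pietrain crossbred gilts that had all been served by 1 Pietrain boar. No embryo was treated or genetically altered, and each library is 1 embryo. There were 6 groups, female and male embryos on Day 8, Day 10 and Day 12 post insemination, with 5 embryos in each. The embryos of a day came from fewer gilts than embryos, with a female and a male taken from the same gilt, so littermates are among the replicates and stand on both sides of the comparisons between sexes. The labels do not tie an embryo to its gilt, and this could not be entered in a fit. Because whole embryos were used, fewer cells of a type and less RNA per cell cannot be told apart in any value below.

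Total counts per embryo ranged from 14882265 to 33799980 on Day 8, 19773328 to 32476637 on Day 10 and 6068212 to 34002508 on Day 12, with the smallest library that of the female embryo d12_f_245. All 7 listed markers of the trophectoderm, 5 of the epiblast and 5 of the hypoblast were in the table. Of 8 markers of uterine epithelium and maternal blood only the globin gene HBB was, at no more than 8.36 CPM in any embryo. Summed epiblast markers went from 291 to 399 CPM on Day 8 to 205 to 263 CPM on Day 10 and 61.1 to 226 CPM on Day 12, and summed trophectoderm markers were 20619 to 25247, 32684 to 50077 and 8568 to 26508 CPM. Over the 7 trophectoderm markers the median log2 fold change was -0.18 on Day 10 against Day 8 (all genes 0.03). The sum thus rose while the median marker did not. The 5 hypoblast markers had medians of -0.52 in that step and 1.40 on Day 12 against Day 10 (all genes 0.04). The part of these markers in the differences between days below was not tested. In 3 Day 12 females, d12_f_245, d12_f_271 and d12_f_289, the ribosomal protein genes stood apart from the other 27 embryos. In these 3 libraries genes with a short genomic span were also high against genes with a long one. The mean log2 level of the 25% of genes with the shortest span (up to 10.1 kb, members left out) minus that of the 25% with the longest was 0.44, 0.49 and -0.03 in the 3 females, and -0.63 to -0.24 in the other 27 embryos. The members span a median of 4.06 kb and 76 of 81 fall among those shortest genes. The part of this shift in the results was not tested. The results between days and between sexes that rest on Day 12 females are given with and without the 3. The interactions and the single genes of other lists are given only with them. The 3 were left out because of their high ribosomal protein values, so the counts and p-values of the fits without them depend on that choice and are a description. The fits of male embryos alone do not depend on it.

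The share of an embryo's counts that fell on the 81 genes was close to the same on Day 8 and Day 10. On Day 8 it was 5.90 to 7.01% with a median of 6.48%, and on Day 10 it was 5.94 to 6.99% with a median of 6.73%. The ranges of the 2 days overlapped almost completely. On Day 12 the 5 males were at 6.54, 6.65, 6.85, 6.70 and 6.89%, inside the range of the earlier days. The 5 females of that day, in the order d12_f_245, d12_f_271, d12_f_289, d12_f_297 and d12_f_299, were at 13.3, 12.2, 8.95, 7.24 and 6.88%. Thus 3 of the females lay above every other embryo, by the widest margin in d12_f_245 and d12_f_271. Below them, d12_f_297 at 7.24% was still above every male and every embryo of the earlier days. Only d12_f_299, at 6.88%, lay among the males. Both subunits moved with this split: the large subunit genes took 3.72 to 3.92% of counts in Day 12 males and 3.94 to 7.54% in Day 12 females, and the small subunit genes 2.82 to 3.02% and 2.94 to 5.81%. No test was made on this summed share.

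**Figure D1:**
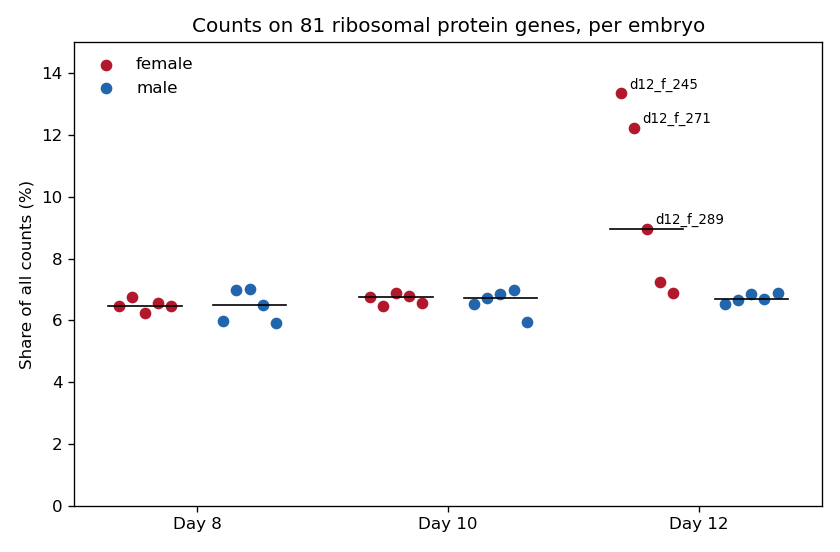
Share of all counts (percent, y axis) that fell on the 81 ribosomal protein genes in each of the 30 embryos, by day, with females in red and males in blue and the median of each group of 5 as a line. All Day 8, Day 10 and Day 12 male embryos lie between 5.90 and 7.01%, and 3 named Day 12 females lie at 8.95, 12.2 and 13.3%.

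Set against the mean of the 5 Day 12 males, the ribosomal protein genes of the 3 females were high almost to a gene. In d12_f_245 all 81 members were above the male mean and 78 above the highest male, with a median log2 difference of 0.84. In d12_f_271 the numbers were 80 and 80 with a median of 1.01, and in d12_f_289 they were 79 and 70 with a median of 0.44. The females d12_f_297 and d12_f_299 had 7 and 3 members above the highest male, and medians of 0.06 and -0.01. Of all 13103 genes, 30.9, 29.0, 24.2, 11.4 and 8.86% were above the highest male in the 5 females in the same order. The members were not raised evenly: the highest in d12_f_271 was RPLP2, 1.64 above the male mean on the log2 scale, and the lowest was RPL3L, at -0.58. Across the 81 members these differences ranked alike in the 3 females, with Spearman correlations of 0.86 between the first and second of them, 0.81 between the first and the last and 0.67 between the second and the last. All 3 were taken against the same male mean, and d12_f_297 and d12_f_299 correlated at 0.62 on the same measure. Summed trophectoderm markers were 18924, 26508 and 14351 CPM in the 3 females and 8568 to 18758 CPM in the other Day 12 embryos, and summed hypoblast markers were 423, 141 and 378 CPM against 194 to 1182 CPM. Their part in the difference was not tested.

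The first comparison between days asked how the ribosomal protein genes changed from the spherical embryo of Day 8 to Day 10, before elongation. Most were slightly higher on Day 10. After TMM scaling the median log2 fold change of the 81 genes was 0.24, against 0.03 over all 13103 genes, and 74 of the 81 were positive. EdgeR's quasi-likelihood test at a false discovery rate (FDR) of 0.05 called 33 members higher, among 29.4% of all genes called higher, and 2 lower, among 26.7% of all genes. The 2 lower genes were the paralogs RPL7L1 and RPL26L1. No member passed the stricter stage rule, an FDR below 0.001 together with a more than 2-fold change, which 14.1% of all genes passed. The higher calls were 17 of 32 small subunit and 16 of 49 large subunit genes, and 22 and 31 of them without the 3 Day 12 females. With library size alone as the scale, where the median of all genes moved to -0.15, 5 members were called higher among 21.3% of all genes and 5 lower among 36.8%. The members' median stood 0.21 above that of all genes with TMM and 0.20 above it on library size. Leaving out the 3 Day 12 females, which enter this comparison only through the shared scaling and spread, gave 53 higher and 2 lower (33.1 and 30.8% of all genes), and the 53 held all of the 33.

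For 18 members every Day 10 embryo was above every Day 8 embryo in CPM, as was the case for 11% of all genes, and no member showed the reverse. RPS21, a 40S protein, rose most. It was at 189.8 to 261 CPM with a median of 219 on Day 8 and 288.6 to 419.9 CPM with a median of 314 on Day 10, so the groups did not overlap. The log2 fold change was 0.60 ± 0.16 (SE, n = 10 embryos a day here and in all day comparisons with all embryos), with an adjusted p of 0.00177. Day comparisons without the 3 females had 7 embryos on Day 12, and those of males alone had 5 embryos a day. RPS24, a 40S protein mutated in Diamond-Blackfan anaemia, was at 609 to 867 CPM with a median of 751 on Day 8 and 933 to 1254 CPM with a median of 1142 on Day 10, again without overlap, and rose by 0.58 ± 0.17 (adjusted p = 0.00384) in edgeR's test. RPS15, which is needed for export of the 40S subunit from the nucleus, went from 347 to 447 CPM with a median of 392 to 462 to 739 CPM with a median of 536, with a log2 fold change of 0.49 ± 0.15 (adjusted p = 0.00627).

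RPLP1 and RPLP2 form, with RPLP0, the stalk of the 60S subunit that recruits the elongation factors. RPLP1 was 682 to 914 CPM with a median of 789.8 on Day 8 and 892 to 1232 CPM with a median of 1112 on Day 10, with overlap of the lowest Day 10 embryo alone, and rose by 0.47 ± 0.13 (adjusted p = 0.00301) on the log2 scale. RPLP2 (0.33 ± 0.20, adjusted p = 0.156) and RPLP0 (0.22 ± 0.12, adjusted p = 0.108) did not pass with all embryos. Both passed in the fit without the 3 Day 12 females, RPLP2 at 0.33 ± 0.071 (adjusted p = 0.000246) and RPLP0 at 0.22 ± 0.086 (adjusted p = 0.0273). RPSA, a 40S protein that also binds laminin, rose by 0.47 ± 0.081 (adjusted p = 1.57e-05), and its Day 10 range of 2147 to 2721 CPM was wholly above the Day 8 range of 1565 to 1973 CPM. RPS6, the substrate of the S6 kinases, rose by 0.25 ± 0.10 (adjusted p = 0.04). RPL5 and RPL11 carry the 5S rRNA into the 60S subunit and can bind MDM2. RPL11 rose by 0.37 ± 0.079 (adjusted p = 0.00023), while RPL5 was 0.05 ± 0.078 (adjusted p = 0.579). RPS27A, made as a fusion with ubiquitin, was 0.01 ± 0.10 (adjusted p = 0.968). Thus of these 8 genes, listed for their roles, RPLP1, RPSA, RPS6 and RPL11 passed the test with all embryos and the others did not.

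From Day 10 to Day 12, the days between which the conceptus begins to elongate, the direction of the ribosomal protein genes rested on the 3 females. With all embryos, the median log2 fold change was 0.12 (all genes 0.04), with 5 members called higher among 32.6% of all genes and 1 lower among 27.1%. On library size alone, where the median of all genes was 0.24, 51 were called higher among 43.8% of all genes and 0 lower among 17.5%. RPL3L, described below, alone passed the stage rule, which 23.3% of all genes passed. Without the 3 females the median was -0.17 (all genes 0.02), 47 members were called lower among 29.7% of all genes and RPL3L alone was called higher among 33.4%. The male embryos by themselves, a comparison that holds none of these females, had a median of -0.18, with 26 members called lower among 21.5% of all genes and 1 higher among 25.9%. In edgeR's robust generalised linear model, which gives outlying embryos less weight, all 30 embryos gave a median of -0.05, with 2 higher among 33.1% of all genes and 5 lower among 29.8%.

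RPS20 and RPL37, 2 of the 5 members called higher with all embryos, show this split. RPS20, a 40S protein, was 1058 to 1248 CPM with a median of 1200.2 on Day 10. On Day 12 it was 3183, 2903, 1647, 1268 and 1138 CPM in the females, in the order given above, and 1104, 1142, 1439.8, 1271 and 1153 CPM in the males. The first 3 females were above every other embryo of the 2 days, and of the other 7 Day 12 embryos 4 lay within the Day 10 range and 3 above it. Its log2 fold change was 0.46 ± 0.16 (adjusted p = 0.0127) with all embryos and 0.04 ± 0.064 (adjusted p = 0.61) without the 3. The 60S protein RPL37 was 0.45 ± 0.16 (adjusted p = 0.0158) with all embryos and 0.02 ± 0.073 (adjusted p = 0.827) without the 3. RPL22L1, a paralog of the 60S protein RPL22, was the 1 member called lower with all embryos, at -0.23 ± 0.10 (adjusted p = 0.0415), and was also called without the 3, at -0.32 ± 0.091 (adjusted p = 0.00321). The call with all embryos was lost when d10_f_336 was left out.

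Among the members called lower without the 3 females, RPS24 had the largest log2 fold change, -0.47 ± 0.082 (adjusted p = 1.51e-05). It was 841 and 792 CPM in d12_f_297 and d12_f_299 and 680.4, 823, 990.3, 837 and 712 CPM in the 5 males, against 933 to 1254 CPM on Day 10. Of these 7 embryos 1 male overlapped the Day 10 range. The 3 females were at 2101, 2057 and 1174 CPM, within or above that range, and with them the change was -0.03 ± 0.17 (adjusted p = 0.901). RPL23, a 60S protein that can bind MDM2, changed by -0.38 ± 0.062 (adjusted p = 6.29e-06) without the 3 and was -0.07 ± 0.12 (adjusted p = 0.629) with them. RPS21, highest in its change from Day 8 to Day 10, was -0.33 ± 0.087 (adjusted p = 0.00173) without and 0.10 ± 0.16 (adjusted p = 0.59) with the 3 females. Of the 8 genes listed for their roles, RPLP2, RPS6, RPL5, RPL11, RPSA and RPS27A were called lower without the 3 females, between -0.29 for RPL11 and -0.21 for RPS6, while RPLP0 at -0.01 ± 0.095 (adjusted p = 0.945) and RPLP1 at -0.16 ± 0.072 (adjusted p = 0.0503) did not pass. With all embryos none of the 8 passed, from -0.14 for RPSA to 0.36 for RPLP2. These Day 12 values share the Day 10 embryos with the first comparison.

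**Figure D2:**
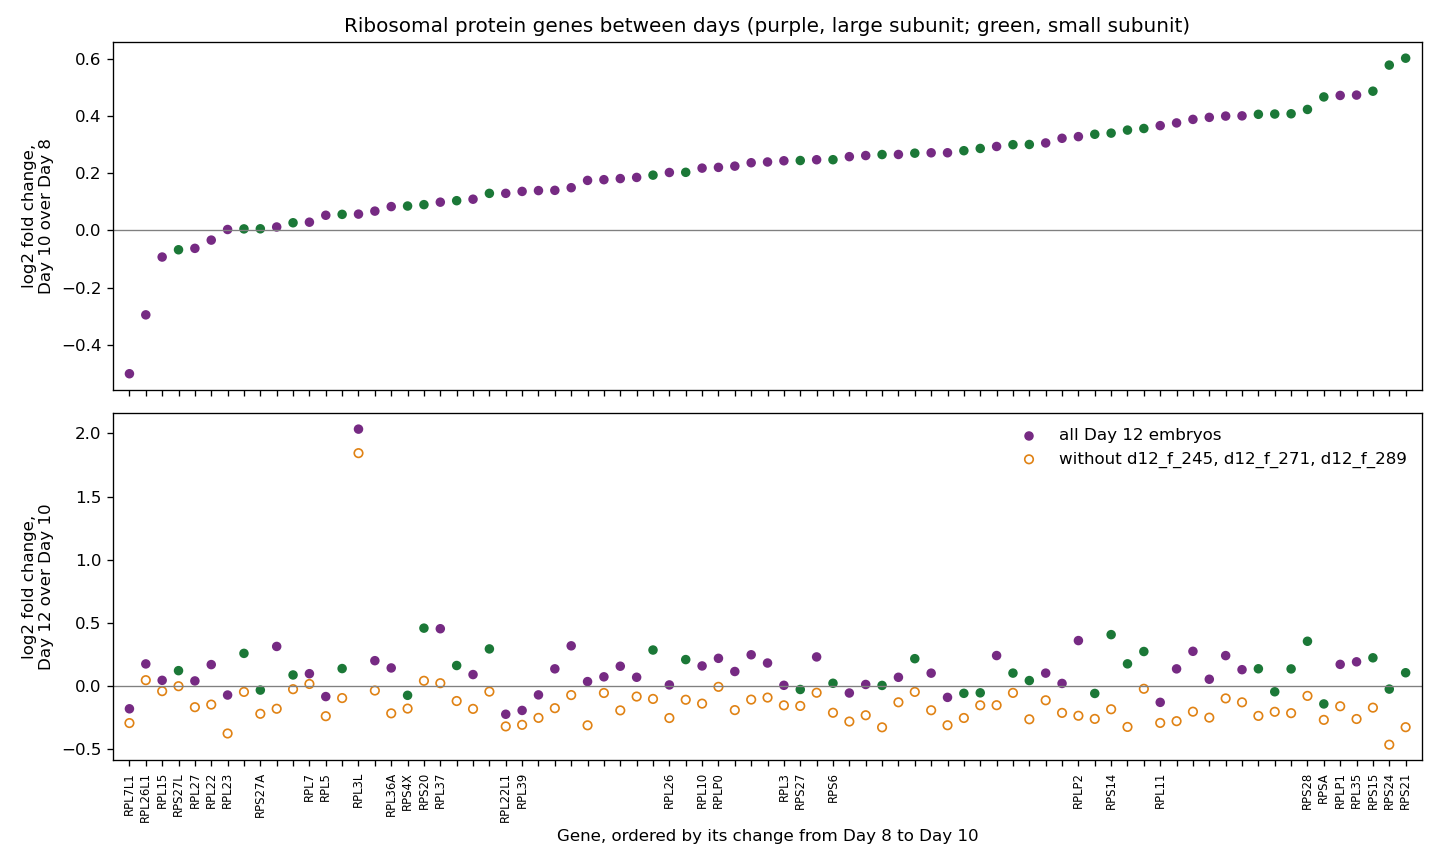
Log2 fold change (y axes) of 79 of the 81 members, ordered by the change from Day 8 to Day 10 (upper panel, large subunit in purple and small subunit in green). The lower panel gives Day 12 over Day 10 for all embryos (filled, same colours) and without the 3 Day 12 females (open, orange): the medians are 0.12 and -0.17, and RPL3L stands alone at 2.03 and 1.84 (medians over all 81; members named in the text are labelled on the x axis).

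Across the whole interval, Day 12 against Day 8, 54 members were called higher among 40.1% of all genes and 1 lower, RPL7L1, among 33.3%, with a median log2 fold change of 0.34 (all genes 0.09). Without the 3 females 23 remained higher among 40% of all genes, all of them among the 54, and 9 were lower among 34.9%, with a median of 0.08 (all genes 0.06). RPL3L alone passed the stage rule, which 32.5% of all genes passed. RPS28, a small protein at the mRNA exit of the 40S subunit, had the largest rise after RPL3L. It was 264 to 334 CPM with a median of 294 on Day 8, 974, 965, 518, 391 and 384 CPM in Day 12 females and 349, 356, 431, 376 and 358 CPM in Day 12 males, so that every Day 12 embryo was above every Day 8 embryo. This held for 2 of the 81 members, beside 15.7% of all genes. The log2 fold change of RPS28 was 0.78 ± 0.16 (adjusted p = 7.62e-05) with all embryos and 0.34 ± 0.063 (adjusted p = 2.35e-05) without the 3 females. RPS15 (0.71 and 0.31), RPS21 (0.71 and 0.27), RPL35 (0.66 and 0.21) and RPLP1 (0.64 and 0.31) were also called both ways. RPS14, the 40S gene lost in the 5q minus syndrome, was at 0.75 ± 0.19 (adjusted p = 0.00103) with all embryos and 0.15 ± 0.064 (adjusted p = 0.0315) without the 3. The 9 members called lower without the 3 females were RPL7L1 (-0.80), RPL23 (-0.38), RPL26L1, RPL27, RPS27A, RPL5, RPL22, RPL14 and RPL15, the last 7 between -0.25 and -0.14; RPL14 is the one named here after its values were seen.

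Because the whole group can shift with the scale, each gene was also tested against the course that the members share, with the summed member counts, TMM-scaled over the members, as the library size. A positive value then means a larger share of the ribosomal protein counts. On this scale 12 members were called above and 16 below the common course on Day 10 against Day 8, among 18.4 and 35.5% of all genes. For Day 12 against Day 10 it was 9 and 11 (28.3 and 23.2% of all genes), and for Day 12 against Day 8 it was 17 and 19 (30 and 41.3%). Without the 3 Day 12 females the numbers were 22 and 23 (21.9 and 43.8% of all genes), 13 and 14 (40.9 and 20.1%), and 16 and 22 (36.5 and 37.5%). All 28 members called on Day 10 against Day 8 were among the 45 called without the 3, and 30 of the 36 called on Day 12 against Day 8 were called in the same direction without them.

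RPL7L1 left the common course furthest of the members present at more than a few counts. Its counterpart in yeast, Rlp7, is a nucleolar factor of 60S assembly. RPL7L1 was 250.0 to 355 CPM with a median of 312 on Day 8, 160.0 to 271.5 CPM with a median of 224 on Day 10 and 162 to 259 CPM with a median of 176 on Day 12. The lowest Day 8 embryo lay inside the Day 10 range, and the 2 later days overlapped widely. As a share of the ribosomal protein counts it went from 0.452 to 0.536% (median 0.496%) to 0.222 to 0.395% (median 0.305%) and 0.193 to 0.357% (median 0.255%), with neither later day reaching the Day 8 range. Against the common course the log2 fold change was -0.72 ± 0.11 (adjusted p = 5.53e-06) from Day 8 to Day 10 and -0.98 ± 0.11 (adjusted p = 1.01e-08) from Day 8 to Day 12, and -0.86 ± 0.11 (adjusted p = 9.14e-08) for the latter without the 3 females.

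RPL26L1, a paralog of RPL26 that differs from it at few residues, made 0.0728 to 0.0969% (median 0.0840%) of the ribosomal protein counts on Day 8 and 0.0505 to 0.0677% (median 0.0591%) on Day 10, without overlap, and 0.0484 to 0.0771% (median 0.0647%) on Day 12. Its value against the course was -0.52 ± 0.082 (adjusted p = 5.2e-06) on Day 10 against Day 8. RPL27, a 60S protein, went from 0.779 to 0.909% (median 0.819%) to 0.613 to 0.762% (median 0.678%), without overlap, and was 0.547 to 0.726% (median 0.669%) on Day 12. Its values against the course were -0.29 ± 0.063 (adjusted p = 0.000384) and -0.35 ± 0.063 (adjusted p = 1.47e-05) on the 2 later days. RPL15, another 60S protein, was -0.32 ± 0.083 (adjusted p = 0.00198) against the course on Day 10 and was also below it on Day 12 (-0.33, and -0.20 without the 3 females). RPS27L, a paralog of RPS27 that p53 induces, was -0.29 ± 0.11 (adjusted p = 0.0225) on Day 10 against Day 8.

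RPL23 stepped down on both days. It made 1.55 to 1.74% (median 1.66%), 1.25 to 1.68% (median 1.40%) and 1.14 to 1.37% (median 1.24%) of the ribosomal protein counts on Days 8, 10 and 12, and Day 12 lay wholly below Day 8. Its value against the course was -0.43 ± 0.065 (adjusted p = 1.07e-06) from Day 8 to Day 12, and -0.45 without the 3 females. RPL5 and RPS27A were also lower on Day 12 than on Day 8, at -0.34 ± 0.067 (adjusted p = 4.51e-05) and -0.35 ± 0.068 (adjusted p = 3.63e-05), and in both every Day 12 embryo was below every Day 8 embryo in share. RPL5's partner RPL11 was 0.14 ± 0.065 (adjusted p = 0.0714) from Day 8 to Day 10 and -0.21 ± 0.065 (adjusted p = 0.00665) from Day 10 to Day 12. RPSA was 0.24 ± 0.077 (adjusted p = 0.0104) and then -0.21 ± 0.077 (adjusted p = 0.0225), so both were lower against the course on Day 12 than on Day 10.

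Above the common course, RPS21 went from 0.319 to 0.405% (median 0.343%) of the ribosomal protein counts on Day 8 to 0.389 to 0.549% (median 0.445%) on Day 10, with 0.37 ± 0.088 (adjusted p = 0.000724) against the course, and was at 0.379 to 0.587% (median 0.420%) on Day 12. RPS24 went from 0.944 to 1.57% (median 1.24%) to 1.23 to 1.77% (median 1.62%), with 0.35 ± 0.10 (adjusted p = 0.00342), and without the 3 females the next step was -0.32 ± 0.086 (adjusted p = 0.00208). RPS15 (0.26 and 0.34 on Days 10 and 12 against Day 8), RPLP1 (0.25 and 0.28) and RPL35 (0.24 and 0.27) were above the course on both days, with and without the 3 females. RPS28 had a higher share in every Day 12 embryo than in any Day 8 embryo, at 0.567 to 0.831% (median 0.586%) of the ribosomal protein counts against 0.454 to 0.511% (median 0.476%) on Day 8, with 0.38 ± 0.074 (adjusted p = 3.76e-05) against the course.

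RPS20 (0.29 ± 0.072, adjusted p = 0.0012) and RPL37 (0.28 ± 0.075, adjusted p = 0.00191) rose against the course from Day 10 to Day 12, and remained called without the 3 females (0.19 and 0.18). RPL22L1 (-0.29 ± 0.11, adjusted p = 0.0282) and RPL39 (-0.26 ± 0.10, adjusted p = 0.0317) fell against it with all embryos, and without the 3 females they were -0.17 ± 0.10 (adjusted p = 0.143) and -0.15 ± 0.087 (adjusted p = 0.129). RPS14 against Day 8 also depended on the 3 females, at 0.32 ± 0.10 (adjusted p = 0.00846) with them and 0.09 ± 0.052 (adjusted p = 0.122) without. Across the 81 members the departure and the gene's span had Spearman correlations of -0.25, -0.12 and -0.19 for the 3 comparisons in the order above, given as a description over genes that share libraries.

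**Figure D3:**
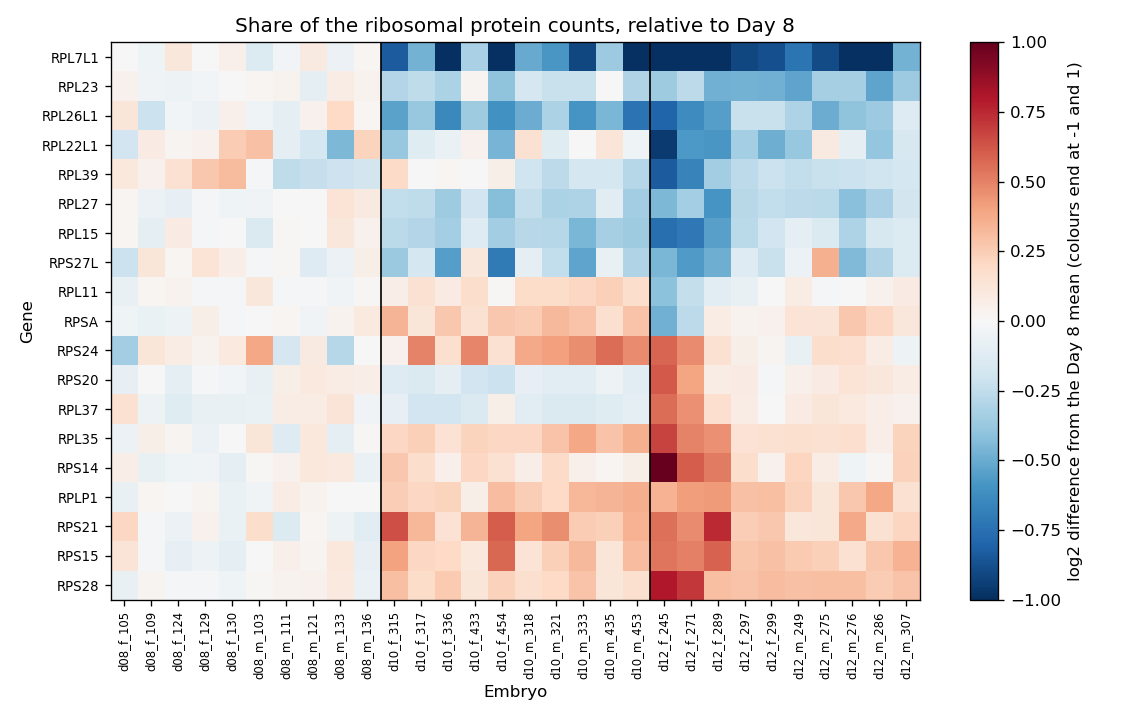
Share of the ribosomal protein counts for 19 of the members with the largest called departures, RPL3L left out (rows), in each of the 30 embryos (columns, in the order of the days), as a log2 difference from the Day 8 mean. RPL7L1 and RPL26L1 are blue in all Day 10 and Day 12 embryos, RPS28 and RPS15 red, and the first 3 Day 12 columns (d12_f_245, d12_f_271 and d12_f_289) carry stronger colours in many rows.

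Ribosomal protein paralogs were set beside the members they resemble. RPL7L1 made 17.0 to 19.7% (median 18.1%) of the summed counts of RPL7 and RPL7L1 on Day 8, 10.6 to 16.4% (median 13.9%) on Day 10 and 10.0 to 14.0% (median 10.99%) on Day 12, and no later embryo reached the Day 8 range. With the 3 females left out, the Day 12 embryos were at 10.0 to 14.0% (median 10.8%). RPL26L1 made 7.58 to 10.00% (median 8.48%) of its pair with RPL26 on Day 8 and 5.11 to 7.51% (median 6.09%) on Day 10, without overlap, and 5.87 to 8.43% (median 7.18%) on Day 12. RPS27L made 13.0 to 17.5% (median 14.6%) of its pair with RPS27 on Day 8, 9.71 to 14.8% (median 12.6%) on Day 10 and 10.6 to 16.9% (median 13.4%) on Day 12, with overlap of all 3 days. RPL22L1 made 36.7 to 48.3% (median 45.1%), 43.8 to 49.4% (median 47.0%) and 32.03 to 48.0% (median 42.0%) of its pair with RPL22 on Days 8, 10 and 12. These percentages are of counts and are not corrected for transcript length, so they compare days and not the 2 genes of a pair. Reads from near-identical copies, of which ribosomal protein genes have many in the genome, may be split or dropped, and the counting of such reads is not given in the sources used here.

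RPL3L, the form of RPL3 known from heart and skeletal muscle, had the largest change of the 81, at a very low level. It had 5 to 15 counts per embryo on Day 8 and 2 to 16 on Day 10, which is 0.186 to 0.582 CPM with a median of 0.369 and 0.0890 to 0.592 CPM with a median of 0.456. On Day 12 it had 22, 11, 48, 70 and 47 counts in the females and 36, 25, 12, 27 and 24 in the males. In CPM these were 3.18, 0.660, 2.58, 2.16 and 2.77 in the females and 1.71, 1.02, 0.492, 0.785 and 0.929 in the males, and 1 male lay inside the Day 10 range. The log2 fold change was 2.03 ± 0.34 (adjusted p = 6.14e-06) against Day 10 and 2.09 ± 0.34 (adjusted p = 2.77e-06) against Day 8, and 1.84 ± 0.33 (adjusted p = 2.57e-05) against Day 10 without the 3 females. Males alone gave 1.26 and 1.62, neither of which passed the stage rule. Its partner RPL3 was 0.00 ± 0.077 (adjusted p = 0.972) in the same step with all embryos and -0.16 ± 0.042 (adjusted p = 0.00219) without the 3 females, and RPL3L made at most 0.202% of the counts of the pair in any embryo.

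A set of 96 genes for rRNA transcription and ribosome assembly was lower on Day 10 than on Day 8 almost throughout. Of these, 83 were called lower and 3 higher on Day 10 against Day 8, with a median log2 fold change of -0.67, where 26.7% of all genes were called lower and 29.4% higher. On library size alone 91 were lower and 1 higher, with a median of -0.83. Against Day 8, Day 12 had 88 lower and 1 higher with a median of -0.82, beside 33.3 and 40.1% of all genes, and without the 3 females 90 lower and 0 higher with the same median. From Day 10 to Day 12, 33 of the 96 were lower and 3 higher, with a median of -0.13, beside 27.1% of all genes lower and 32.6% higher. The stage rule called 8 lower on Day 10 and 29 lower on Day 12 against Day 8, beside 4.20 and 10.4% of all genes, and the latter fell to 21 without the 3 females, beside 9.94%. These included the RNA polymerase I subunit POLR1A on Day 10 (-1.01 ± 0.12, adjusted p = 5.37e-08) and POLR1B on Day 12 (-1.10 ± 0.14, adjusted p = 1.96e-08). They also included WDR3 (-1.60 ± 0.19, adjusted p = 7.33e-09), UTP4 (-1.51 ± 0.13, adjusted p = 1.13e-11) and HEATR1 (-1.24 ± 0.14, adjusted p = 3.73e-09), which act in the first steps of 18S rRNA processing, and nucleolin, NCL (-1.02 ± 0.16, adjusted p = 8.53e-07). TAF1B, part of the RNA polymerase I selectivity factor, had the lowest value on Day 12 (-1.86 ± 0.13, adjusted p = 9.74e-14). The nearest member to these medians was RPL7L1, at -0.50 and -0.68 on Days 10 and 12 against Day 8.

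**Figure D4:**
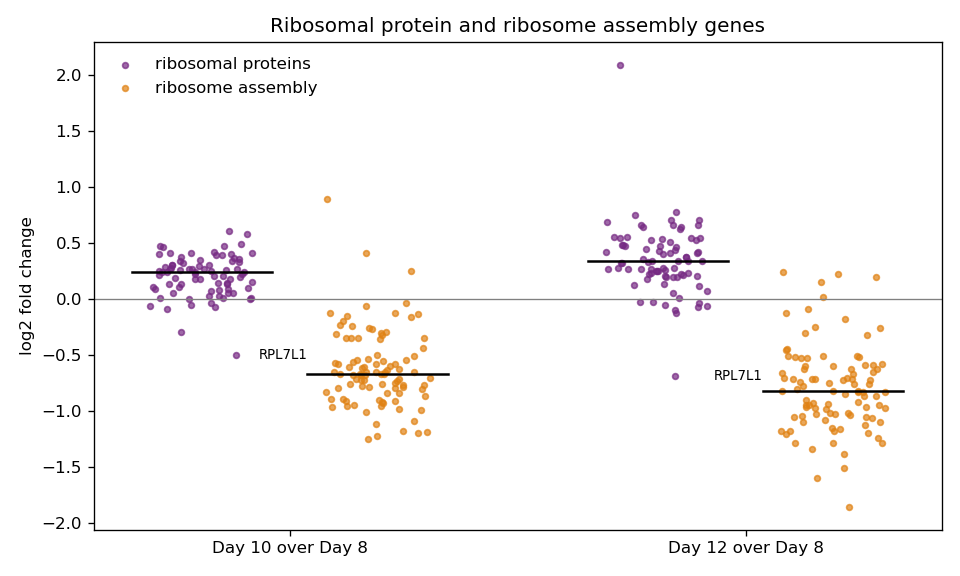
Log2 fold change against Day 8 (y axis) for the 81 ribosomal protein genes (purple) and the 96 rRNA transcription and ribosome assembly genes (orange) on Day 10 and Day 12, 1 point a gene, with the medians as lines. The medians are 0.24 and 0.34 for the ribosomal proteins and -0.67 and -0.82 for the assembly genes, and RPL7L1 is marked.

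Other translation genes were counted in the same way, against 29.4% of all genes called higher and 26.7% lower on Day 10, and 40.1 and 33.3% on Day 12. Against Day 8, the 41 subunits of initiation factors had 3 members up and 20 down on Day 10, with a median of -0.21, and 6 up and 27 down on Day 12, with a median of -0.31. By the stage rule EIF4E, which binds the mRNA cap, fell by Day 12 (-1.12 ± 0.10, adjusted p = 4.04e-11), as did EIF5 (-1.15 ± 0.12, adjusted p = 1.17e-09), whereas EIF4E3 (1.88 ± 0.30, adjusted p = 1.44e-06) and EIF4G3 (1.05 ± 0.17, adjusted p = 2.66e-06) rose. Without the 3 females no initiation factor passed that rule downwards, and 3 were up and 29 down at an FDR of 0.05. The 13 elongation and termination genes had 3 up and 4 down on Day 10 and 4 up and 5 down on Day 12, or 3 and 7 without the 3 females. The termination factors ETF1 (-1.22 ± 0.10, adjusted p = 2.98e-12) and GSPT1 (-1.02 ± 0.13, adjusted p = 1.94e-08) and EEF1E1 (-1.29 ± 0.14, adjusted p = 6.63e-10), a protein of the tRNA synthetase complex, passed the stage rule downwards on Day 12 against Day 8, and 2 of the 13 did without the 3 females. GSPT2, a paralog of GSPT1, passed it upwards (1.78 ± 0.37, adjusted p = 8.81e-05). EEF2K, the kinase that inactivates EEF2, was up on Day 10 (1.62 ± 0.19, adjusted p = 2.35e-08) and down again by Day 12 against Day 10 (-1.26 ± 0.19, adjusted p = 8.65e-07).

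Among 20 genes that control TOP mRNAs, 4 were up and 10 down on Day 10 against Day 8, beside the same 29.4 and 26.7% of all genes, and 1 up and 13 down on Day 12, or 1 and 14 without the 3 females, beside 40.1 and 33.3%. RPS6KB2, an S6 kinase, passed the stage rule upwards on both days (1.36 ± 0.18, adjusted p = 1.91e-07 and 1.95 ± 0.18 (adjusted p = 5.94e-11)), and LARP1B (-2.17 ± 0.12, adjusted p = 6.67e-16) and LARP4 (-1.31 ± 0.14, adjusted p = 2.09e-09) passed it downwards on Day 12. The 4 ribosomal protein genes that the symbol rule leaves out had medians of 0.15 and 0.41 on Days 10 and 12 against Day 8. Of these 4, 1 was called higher on Day 10 and 3 on Day 12, the latter falling to 2 higher and 1 lower without the 3 females.

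The second question of the design was whether female and male embryos of the same day differ. The X chromosome carries 4 of the members: RPL10 (chrX:124927249-124929791, gene 733593), RPS4X (chrX:58149302-58155179, gene 397611), RPL39 (chrX:98178148-98181439, gene 100515520) and RPL36A (chrX:83018305-83022285, gene 100627401), with positions in Sscrofa11.1. RPL10 lies near the catalytic centre of the 60S subunit, and RPS4X is a 40S protein with a Y-linked copy in humans. On Day 8, 3 of 80 members in that day's table were called higher in females, all of them X-linked, among 0.535% of all genes, and 0 were lower, among 0.123%. On Day 10, 2 of 80 were higher in females, RPL10 and RPS4X, among 0.12% of all genes, and 0 were lower, among 0.103%. Over all 80 members, the X-linked ones included, the median log2 difference was -0.06 on Day 8, with 9 positive. It was -0.03 on Day 10, with 29 positive, against -0.02 and -0.01 over all genes. In CPM, every female was above every male for 3, 4 and 2 of the 81 members on Days 8, 10 and 12. The same was so for 1.1, 0.565 and 1.62% of all genes.

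RPL10 in Day 8 females was 1941, 1844, 1837, 1992 and 1952 CPM, and in Day 8 males 940.0, 1319, 1262, 1327 and 1138 CPM. On Day 10 it was 2397, 2072, 2319.9, 1958 and 2390.2 CPM in females and 1354, 1309, 1522, 1325 and 1438 CPM in males. On Day 12 it was 3206, 2944, 2538, 2147 and 2212 CPM in females and 1296, 1342, 1622, 1529.9 and 1326 CPM in males. On each day every female was above every male. The log2 difference was 0.68 ± 0.086 (adjusted p = 0.00161) on Day 8 (SE, n = 5 embryos a sex, edgeR, here and in all sex comparisons with all embryos), 0.67 ± 0.088 (adjusted p = 0.0082) on Day 10 and 0.91 ± 0.17 (adjusted p = 0.11) on Day 12. Without the 3 females, every Day 12 sex comparison here and below set only d12_f_297 and d12_f_299 against the 5 males. The Day 12 value of RPL10 was then 0.63 ± 0.12 (adjusted p = 0.413).

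RPS4X separated the sexes in the same way on Day 8, with females at 2689.9, 2573, 2521, 2514 and 2534 CPM and males at 1381, 1707, 1619, 1611 and 1558 CPM. Day 10 females were at 2681, 2536, 2702, 2372 and 2937 CPM and males at 1816, 1703, 1732, 1642 and 1846 CPM, and Day 12 females at 2239, 2702, 2337, 2200.5 and 2365 CPM and males at 1686, 1723, 2063, 1907 and 1618 CPM. Females and males did not overlap on any day, though the gap was smallest on Day 12. The log2 difference was 0.70 ± 0.061 (adjusted p = 4.45e-05) on Day 8, 0.59 ± 0.081 (adjusted p = 0.0117) on Day 10 and 0.43 ± 0.13 (adjusted p = 0.198) on Day 12. The Day 12 value was 0.36 ± 0.12 (adjusted p = 1) without the 3 females. Scaled to the ribosomal protein genes, it turned to -0.03 ± 0.20 (adjusted p = 0.926), and it was 0.31 ± 0.10 (adjusted p = 0.998) on that scale without the 3 females.

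For RPL39, a very short protein of the 60S exit tunnel, Day 8 females were at 489, 463, 456, 528 and 539.8 CPM and males at 385, 405, 405, 389 and 359.9 CPM, without overlap. The log2 difference was 0.35 ± 0.066 (adjusted p = 0.0325) on Day 8, 0.30 ± 0.087 (adjusted p = 0.972) on Day 10 and 0.26 ± 0.14 (adjusted p = 0.274) on Day 12, and the last was 0.02 ± 0.11 (adjusted p = 1) without the 3 females and turned to -0.23 ± 0.18 with them when scaled to the ribosomal protein genes. The Day 8 call of RPL39 was lost when any of 9 of the 10 embryos was left out, and both Day 10 calls when d10_m_318 was. RPL36A, a 60S protein at the tRNA exit site, was 438, 411, 432.6, 431 and 432 CPM in Day 10 females and 389, 374, 405, 389.5 and 362 CPM in Day 10 males, without overlap, and the difference of 0.15 ± 0.064 (adjusted p = 1) did not pass. On Day 8 only the lowest female lay among the males, and the difference was 0.26 ± 0.071 (adjusted p = 0.255). On Day 12 RPL36A was 746, 804, 489, 392 and 349.9 CPM in females and 293, 331, 406, 349 and 324 CPM in males, with a difference of 0.75 ± 0.25 (adjusted p = 0.198) that was 0.14 ± 0.14 (adjusted p = 1) without the 3 females.

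**Figure D5:**
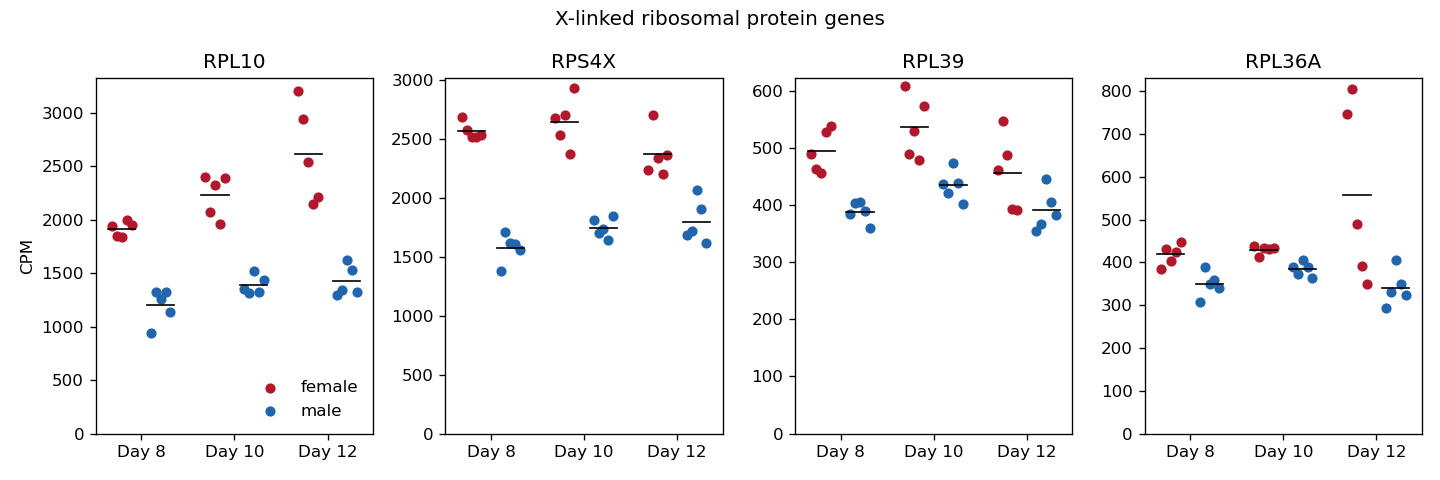
Levels (CPM, y axes from 0) of the 4 X-linked members in each embryo by day, females in red and males in blue, with the mean of each group of 5 as a line. RPL10 and RPS4X separate the sexes on all 3 days, RPL39 on Day 8 and Day 10 but not Day 12, and RPL36A on Day 10 alone. Every female was above every male in 1.1, 0.565 and 1.62% of all genes on the 3 days.

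On Day 12 all 81 members had a positive female over male log2 difference, with a median of 0.58, yet edgeR's quasi-likelihood test called 0 of 81, among 0.0164% of all genes called higher and 0.106% lower. In simulated counts with the spread fitted to each day, changes were planted in genes drawn from the whole table, each varying independently. This test recovered 47% of 2-fold changes on Day 12, 85% on Day 8 and 69% on Day 10. Counts of calls over all genes thus do not compare the days evenly. The members' median of 0.58 is below 2-fold and they moved together, so these rates are not those of the members. At an unadjusted p under 0.05 the quasi-likelihood test marked 61 of the 81 higher, among 12.3% of all genes. EdgeR's robust model called 1 member higher among 0.466% of all genes, and DESeq2 2 among 0.812%. Without the 3 females the median was 0.04 and 59 of 81 were positive. The test of the sex difference between days, the interaction, called 0 members between Days 8 and 10, Days 10 and 12 or Days 8 and 12, as for 0% of all genes, with all embryos in the fit. At an unadjusted p under 0.05 it marked 0, 65 and 68 members in that order, among 0.763, 18.9 and 21.8% of all genes. DESeq2 called 0 of 81, 17 of 76 and 28 of 80 members that it gave an adjusted p, among 0.00764, 4.12 and 3.35% of such genes. Thus the larger female values of Day 12 were not shown by edgeR to differ from those of the earlier days. For the X-linked genes, Day 12 against Day 8 gave interaction values of 0.20 ± 0.15 (adjusted p = 0.455) for RPL10, -0.31 ± 0.12 (adjusted p = 0.148) for RPS4X, -0.13 ± 0.13 (adjusted p = 0.598) for RPL39 and 0.45 ± 0.21 (adjusted p = 0.223) for RPL36A. These interactions are given only with the 3 females in the fit. Without them the Day 12 female over male differences were 0.63 for RPL10, 0.36 for RPS4X, 0.02 for RPL39 and 0.14 for RPL36A.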

How the data were processed

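RNA was sequenced from 30 single pig embryos (TruSeq stranded mRNA, 100-bp single reads). Raw counts per gene were deposited by the authors, after trimming in Trim Galore, mapping against Sscrofa11.1, assignment to NCBI genes and a CPM filter; the aligner, counter, cutoff and treatment of reads with several matches are not given in the sources used here. The tables of each day (11405, 11675 and 12220 genes) served for the sexes and the joint table (13103 genes) for the days.

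Counts were TMM-scaled and tested with edgeR 4.0.16 (quasi-likelihood F test, robust, R 4.3.3) over all genes, with Benjamini-Hochberg adjustment; every adjusted p printed is from this test. The 3 days shared 1 fit, and sex was tested within each day and as an interaction in a fit of 6 groups. The stage rule was FDR under 0.001 with a log2 fold change beyond 1, and calls are otherwise at FDR under 0.05. CPM uses TMM library sizes, and log2 fold changes of the tests are those of edgeR's fit at its default prior count. Errors after ± are SE of log2 values, taken as the size of the log2 fold change over the square root of its F statistic. Departures from the common course used the summed member counts as library size. Spans are gene start to end; with no transcript lengths used here, levels were not compared between genes.

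Members given one by one were those past the stage rule, the 5 largest called departures each way per day comparison, paralogs beside their partners, X-linked members, members called between the sexes and 8 listed for their roles, and genes of other lists past the stage rule. Some genes that the rule names are not reported here. The part of the rule on levels per kilobase could not be applied. Members named as the only ones with a call, or to complete a short list, were chosen after their values were seen. The members and gene lists were chosen with earlier results of these data known. Fits without the 3 Day 12 females and scaled to the members were added after the values were seen; the 3 were left out for their high member values, so counts and p-values of those fits are a description. Among 60 pairs of embryos within groups the lowest chi-square per degree of freedom was 7.64, so none were duplicates. P-values measure the spread between embryos, some of which share a litter. The code was tested on simulated data. Figures used Python 3.11.15 and matplotlib 3.10.9. Alternatives were DESeq2 1.42.0, edgeR's robust model, library size alone, a filter of 10 counts in 5 embryos, each sex alone, sex as a term, and leaving out each embryo.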

Additional observations from a re-analysis of the deposited data

Results flagged for a closer look

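Among 138 groups tested, 108 of them the 10 embryos of a day and 30 the 5 embryos of 1 sex on a day, Dixon's test at the 95% level marked 6 in which 1 embryo lay far from the others, and chance alone marks about 1 in 20 groups. RPL15 in d08_m_103 was at 695 CPM, with the other embryos of Day 8 at 831 to 956 CPM. The share of counts on ribosomal protein genes was 5.94% in d10_m_453, with the other embryos of Day 10 at 6.47 to 6.99%. RPL36A in d10_f_317 was at 411 CPM and the other Day 10 females at 431 to 438 CPM. RPL37 in d10_f_454 was at 632 CPM and the other embryos of Day 10 at 471 to 549 CPM. In d12_f_271, RPL7 was at 1962 CPM against 1316 to 1578 CPM in the other embryos of Day 12, and RPS27A at 1503 CPM against 727 to 1094 CPM. That female is 1 of the 3 with a high share of ribosomal protein counts.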

How the results depend on the processing

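Calls between Day 8 and Day 10 moved with the scale and the samples: 5 up and 5 down on library size alone, 3 and 1 in females alone, and 53 higher without the 3 Day 12 females. For Day 12 against Day 10, edgeR's robust model gave 2 higher and 5 lower, library size alone 51 and 0, females alone 9 and 0, males alone 1 and 26, sex as a term 2 lower, and the fit without the 3 females 1 and 47; males alone had a median of -0.20 relative to all genes. For Day 12 against Day 8, males alone gave 8 and 6, the robust model 2 lower, and the fit without the 3 females 23 and 9. By the stage rule males alone called 0 in both. Departures numbered 45 without the 3 females for Day 10 against Day 8, and 33 by DESeq2 for Day 12 against Day 10. For the sexes, the robust model called 1 member on Day 10 and 1 on Day 12, and DESeq2 2 on Day 12; the Day 12 median relative to all genes was 0.068 without the 3 females. Scaled to the members, Day 12 RPS4X turned to -0.030 and RPL39 to -0.23 (-0.024 without the 3). For the interactions DESeq2 called 17 and 28 with Day 12. Without the 10 largest genes of each embryo the mean share was 7.01% on Day 8 and 7.42% on Day 10, and with TMM library sizes 7.26% on Day 10. The causes were not tested. Counts of calls in this section, also with 1 embryo left out, stand without the share of all genes called. Where that share is given above, it moved with the setting too, so these counts do not compare the settings by themselves.

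Leaving out 1 embryo at a time gave, for Day 10 against Day 8, 27 to 40 higher, 2 to 2 lower, 0 to 0 by the stage rule and a median relative to all genes of 0.18 to 0.22. For Day 12 against Day 10 it gave 4 (without d12_f_245) to 15 higher (without d12_m_249), 0 (without d10_f_336) to 5 lower (without d12_f_271), 1 by the stage rule, medians of -0.01 (without d12_f_271) to 0.12, and RPL3L at 1.89 to 2.14. For Day 12 against Day 8 it gave 48 to 63 higher, 1 to 2 lower (2 without d12_f_271), 1 by the stage rule, medians of 0.17 to 0.29, and RPL3L at 1.95 to 2.20. Departures were 23 to 33, 14 to 21 and 30 to 38. Sex calls were 2 to 3 on Day 8 (medians -0.08 to -0.01), 0 (without d10_m_318) to 2 on Day 10 (-0.04 to 0.01) and 0 on Day 12 (0.41 to 0.69). Mean shares were 6.42 to 6.55%, 6.61 to 6.73% and 7.66 to 8.41% on the 3 days. No paired analysis was possible because the labels do not tie embryos to gilts and embryo numbers are not shared between groups. Depth limits RPL3L most, at 2 to 70 counts per embryo.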
